A study of Homo sapiens with 8 samples.

Results

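Human pluripotent stem cells (hPSC) and endoderm cells derived from them were set against ectoderm and mesoderm cells, as 4 long-read RNA libraries against the other 4. All 8 libraries of the data used here entered this contrast. Of 20195 genes with at least 1 read, 10525 passed a filter on low counts and were tested. Within them, 795 genes were kept in endoderm and lost in both other layers, and 518 were kept in endoderm and gained in both other layers. Kept means not called between endoderm and hPSC and less than 1 log2 unit apart, which does not show equal levels. The 95% interval of that difference lay inside 1 log2 unit in 284 lost and 31 gained genes. All lost and gained genes were chosen by the read counts themselves, so their differences along the contrast are a description and carry no test here.

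The study sequenced polyadenylated RNA of the established human embryonic stem cell line H1 on a PacBio Sequel II, with 2 repeats of each of 4 cell states. The hPSC libraries came from H1 cells kept in mTeSR1 medium on Matrigel with no differentiation. Endoderm cells were grown in RPMI with 0.5% FBS, Activin A at 100 ng/ml and WNT3A, for which the labels print 50 nM/ml. Mesoderm cells were grown in DMEM/F12 with 0.5% FBS, BMP4 and VEGF at 100 ng/ml each and bFGF at 10 ng/ml, and received Activin A at 100 ng/ml for the opening 24 hours alone. Ectoderm cells were grown in DMEM/F12 with 15% KOSR, a serum replacement, and with A83-01, PNU-74654 and Dorsomorphin at 2 µM each. All layers were collected after 5 days. A83-01 blocks the type I receptors of NODAL, Activin and TGF-beta, PNU-74654 blocks the binding of beta-catenin to TCF, and Dorsomorphin blocks BMP type I receptors. The cells of all groups are 1 line, and the labels do not say whether repeats were separate cultures, so the p-values given measure the spread between these libraries, which may be technical.

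NODAL and Activin bind a complex of type I and type II receptors, for which TDGF1 (CRIPTO) is the NODAL coreceptor. The receptors phosphorylate SMAD2 and SMAD3, which act with SMAD4 and with DNA-binding partners such as FOXH1. In human pluripotent cells this pathway acts together with FGF signalling to sustain NANOG, and strong Activin signalling with WNT directs the same cells to definitive endoderm. BMP ligands signal through SMAD1 and SMAD5 and raise ID genes.

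The ectoderm libraries held 1180888 and 967206 reads, and the others 503840 to 586183 each. Raw read numbers given below are not scaled to this depth. Levels are given as normalised CPM, which are counts scaled to the library total (CPM) after correction for composition with the TMM factor of edgeR. A count of 3, the limit that a count of 0 allows, was between 2.54 and 5.95 CPM of the library total, which covers counting error only. The marker lists matched the labels of endoderm and ectoderm: the summed level of the endoderm list (9 of 10 genes with reads) was 3073 and 3423 normalised CPM in endoderm and at most 15.3 elsewhere, and that of the ectoderm list (12 of 13 genes with reads) was 1332 and 1056 in ectoderm and at most 175 elsewhere. PAX6 had 170 and 79 reads in ectoderm, and SOX17 had 150 and 16 in endoderm. The libraries labelled mesoderm fitted their list less well: TBXT had 1 and 0 reads there and MIXL1 and FOXF1 none. HAND1, which the amnion list holds too, had 263 and 274 reads, TBX3 132 and 180, and BMP4 165 and 125. The mesoderm list summed to 985 and 1074, against 34.3 to 286 in the other 6 libraries. Of its 13 genes 6 were detected in mesoderm and 8 in endoderm. The 18 amnion and trophoblast genes summed to 8247 and 8795, against 16.4 to 167 in the other 6 libraries. All 18 of those genes were detected in mesoderm. Mean transcript length per read also separated the sides: it was 2975 to 3298 nt in hPSC and endoderm and 3765 to 4650.3 nt in ectoderm and mesoderm. The part of the amnion and trophoblast genes and of the length difference in the gene classes below was not tested.

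A gene was called at an adjusted p under 0.05 in edgeR's quasi-likelihood test with Benjamini-Hochberg adjustment over all 10525 genes. The contrast of the 2 sides called 6221 genes, 59.1% of those tested. Of these, 3014 (28.6%) were higher in hPSC and endoderm and 3207 (30.5%) were higher in ectoderm and mesoderm. Scaled to library totals with no TMM factor, 1894 of 6431 calls (29.5%) were higher in hPSC and endoderm, against 48.4% of the calls with TMM. That scaling moved the median log2 difference of all genes from -0.09 to -0.57. A gene counted as lost where it was higher in hPSC and endoderm, lower than hPSC in ectoderm and in mesoderm, not called between endoderm and hPSC, and less than 1 log2 unit apart there. Gained genes met the mirror of these conditions. The lost genes were 7.55% and the gained genes 4.92% of the genes tested, and without the TMM factor 449 genes were lost and 697 gained. In bulk RNA, fewer cells with a transcript and less of it per cell cannot be told apart. The counts depended on single libraries: 311 genes were lost in the fit without mesoderm repeat 2, 349 without mesoderm repeat 1, 459 and 477 without ectoderm repeats 2 and 1, and 517 without hPSC repeat 2. Gained genes numbered 261 and 343 without mesoderm repeats 2 and 1. The cut between kept and not kept fell inside a continuum: of 1563 genes that met all other conditions, 1313 lay inside the limit of 1 log2 unit and 250 outside it. ABHD13 and SMC2 lay just inside, each 0.997 log2 units above hPSC in endoderm, and WAC and PAPOLA just outside, at -1.003 and -1.004.

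**Figure D1:**
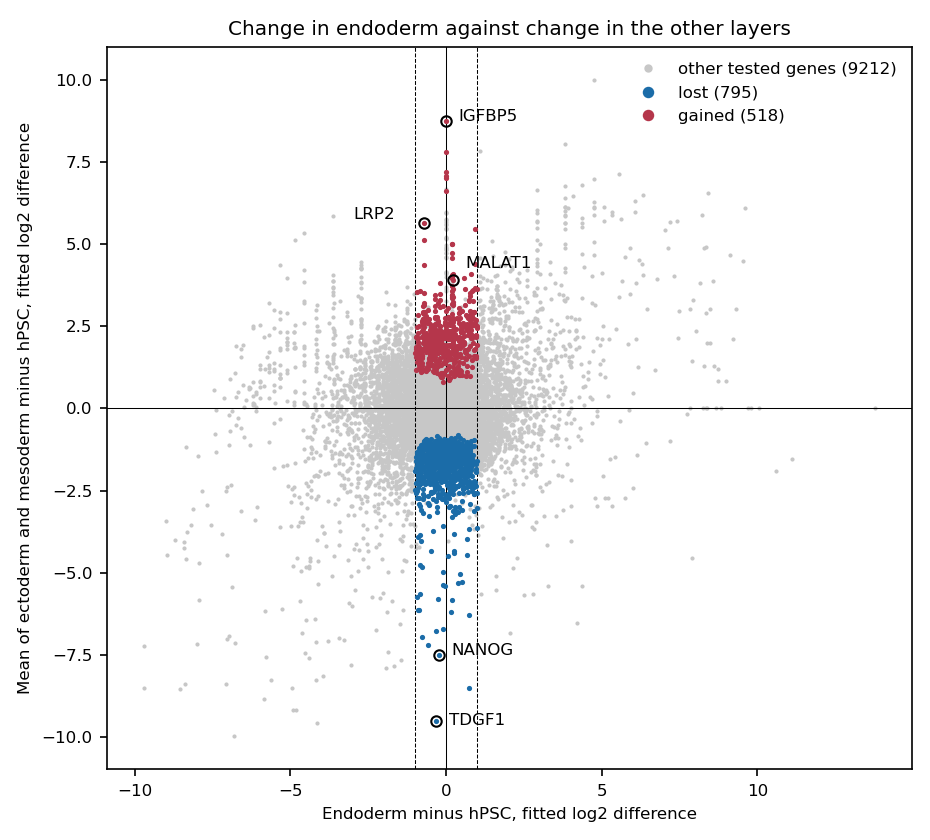
Each point is 1 of the 10525 tested genes, with the fitted log2 difference of endoderm from hPSC on the horizontal axis and the mean of the ectoderm and mesoderm differences from hPSC on the vertical axis. The 795 lost genes (blue) and 518 gained genes (red) lie between the dashed lines at -1 and 1 because the rule placed them there, and the other 9212 genes are grey.

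TDGF1 had the widest separation of all lost genes. Its level was 951 and 1317 normalised CPM in hPSC, 993 and 825 in endoderm, 1.34 and 0.818 in ectoderm, and 0 and 3.56 in mesoderm. The 4 high libraries did not overlap the 4 low ones, in which 5 reads were counted in all. The pooled level was 792-fold higher in hPSC and endoderm, a fitted log2 difference of 9.34 ± 0.40 (SE, n = 4 libraries a side). Endoderm differed from hPSC by -0.32 log2 units (95% interval -1.005 to 0.37). All its reads fell on 1 transcript of 6 exons and 2016 nt at chr3:46577728-46582457 (GRCh38, plus strand).

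NANOG, the homeobox factor of the pluripotent state, was likewise high in hPSC and endoderm and near the detection limit in the other layers. Its level was 143 and 271 normalised CPM in hPSC, 202 and 153 in endoderm, 2.01 and 0 in ectoderm, and 0 and 1.78 in mesoderm. Both endoderm values lay inside the range of the hPSC pair, and the other 4 libraries held 4 reads in all. The pooled ratio was 185, and endoderm differed from hPSC by -0.22 log2 units (95% interval -1.03 to 0.59). The locus spans chr12:7787794-7799146 (GRCh38, plus strand), and 93.5% of its reads fell on a transcript of 4 exons and 5182 nt. NANOGP8, a retrocopy of NANOG, held 41.7 and 98.9 normalised CPM in hPSC, 57.1 and 35.2 in endoderm, 0.67 and 1.64 in ectoderm and none in mesoderm. How the authors assigned reads shared by such copies is not given in the sources used here, so its own level is uncertain.

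NANOG, ISOC2 and DANCR of the lost genes and LRP2 of the gained genes are shown by the 250 bases before their RefSeq start, chosen after the motif search. Of the 24 genes with the widest separation, they are the ones whose RefSeq start coincides with the start of the most read transcript and whose window holds a FOXH1 or SMAD match. KDR, IGFBP5 and CCNG2 also share that start and hold none of the 4 motifs searched. The sequences are from RefSeq (GRCh38.p14), 5′ to 3′ on the strand of the gene. Capitals mark a match, on either strand, to TGTNNATT, the letters of a site bound by FOXH1, or to CAGACA, which holds the box bound by SMAD3 and SMAD4.
NANOG: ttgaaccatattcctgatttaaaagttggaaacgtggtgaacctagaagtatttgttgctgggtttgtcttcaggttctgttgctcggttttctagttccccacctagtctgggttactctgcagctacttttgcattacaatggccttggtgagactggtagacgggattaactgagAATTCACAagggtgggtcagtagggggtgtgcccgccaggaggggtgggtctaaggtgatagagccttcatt
ISOC2: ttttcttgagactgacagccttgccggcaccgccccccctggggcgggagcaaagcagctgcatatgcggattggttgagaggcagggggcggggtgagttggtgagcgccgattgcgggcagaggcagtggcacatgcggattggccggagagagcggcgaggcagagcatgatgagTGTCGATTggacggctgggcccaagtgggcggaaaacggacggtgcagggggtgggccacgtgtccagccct
DANCR: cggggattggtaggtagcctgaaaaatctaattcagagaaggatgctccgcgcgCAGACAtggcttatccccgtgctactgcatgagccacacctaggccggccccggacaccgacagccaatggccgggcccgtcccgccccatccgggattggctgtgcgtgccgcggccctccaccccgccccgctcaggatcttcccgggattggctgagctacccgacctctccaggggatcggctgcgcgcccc
LRP2: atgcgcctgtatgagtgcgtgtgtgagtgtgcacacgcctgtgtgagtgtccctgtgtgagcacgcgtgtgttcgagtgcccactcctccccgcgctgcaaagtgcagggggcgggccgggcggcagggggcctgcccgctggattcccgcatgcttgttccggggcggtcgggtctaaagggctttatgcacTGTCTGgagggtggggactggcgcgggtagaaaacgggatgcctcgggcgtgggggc
The stretches lie at chr12:7789152-7789401 (plus strand), chr19:55461643-55461892 (minus), chr4:52712144-52712393 (plus) and chr2:169362535-169362784 (minus). In NANOG and ISOC2 a FOXH1 match began 72 bases before the start, at -72, in DANCR a SMAD match began at -196, and in LRP2 at -57. Over the windows from 250 bases before to 50 bases after the start, 642 of 795 lost genes and 424 of 518 gained genes had a RefSeq entry. TGTNNATT stood in 5.92% of the lost, 6.13% of the gained and 4.91% of the 8294 matched tested genes, against 11.1% of all 27305 windows of the table. CAGACA stood in 11.1%, 11.8% and 11.6% of these 3 sets and in 16.8% of all windows. The octamer ATGCAAAT, read by POU factors such as POU5F1, stood in 0.935% of lost, 0.236% of gained and 1.10% of tested genes and in 1.80% of all windows. GGCGCC, bound by SMAD1 and SMAD5 complexes, stood in 28.7%, 31.6% and 31.5% of the 3 sets and in 18.97% of all windows. These matches are letters in a window and show no binding.

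The other lost genes with the widest separation had several roles. KDR, the VEGF receptor given with the mesoderm markers, was at 103 and 92.6 normalised CPM in hPSC, 57.1 and 51.7 in endoderm, 1.34 and 2.45 in ectoderm, and 1.70 and 1.78 in mesoderm. The sides did not overlap, and the pooled ratio was 43.2. The log2 difference of endoderm from hPSC was -0.85 ± 0.32 (95% interval -1.52 to -0.17), which did not pass the adjusted threshold, so KDR met the kept condition with an interval that leaves out 0. The intervals of ORMDL3, LINC00458, SLC17A9, SALL4, CLDN7, ALDOC and SNRPN among the lost genes and of DSG2 among the gained ones left out 0 as well. LINC00458, a noncoding RNA linked to HERVH elements, was at 45.3 and 37.9 in hPSC, 72.5 and 68.1 in endoderm, 2.01 and 0.818 in ectoderm and 0 in both mesoderm libraries. Its reads were spread over 16 assembled transcripts, the most read of which took 17.4%. SLC7A3, an importer of cationic amino acids, was at 123 and 246 in hPSC, 123 and 143 in endoderm, 17.4 and 13.1 in ectoderm, and 6.80 and 3.56 in mesoderm. DANCR, a noncoding RNA known to hold back differentiation in progenitor cells, was at 141 and 185 in hPSC, 134 in both endoderm libraries, 14.7 and 20.4 in ectoderm, and 15.3 and 23.2 in mesoderm. The 4 low libraries of DANCR lay close together, and its pooled ratio was 8.34. ORMDL3, a regulator of sphingolipid synthesis, was 18.3-fold higher in hPSC and endoderm, and NPM3, a nucleolar histone chaperone, 23.5-fold. C13orf42 had a ratio of 15.3, SLC17A9, a vesicular nucleotide transporter, of 14.0, and ISOC2 of 11.5.

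**Figure D2:**
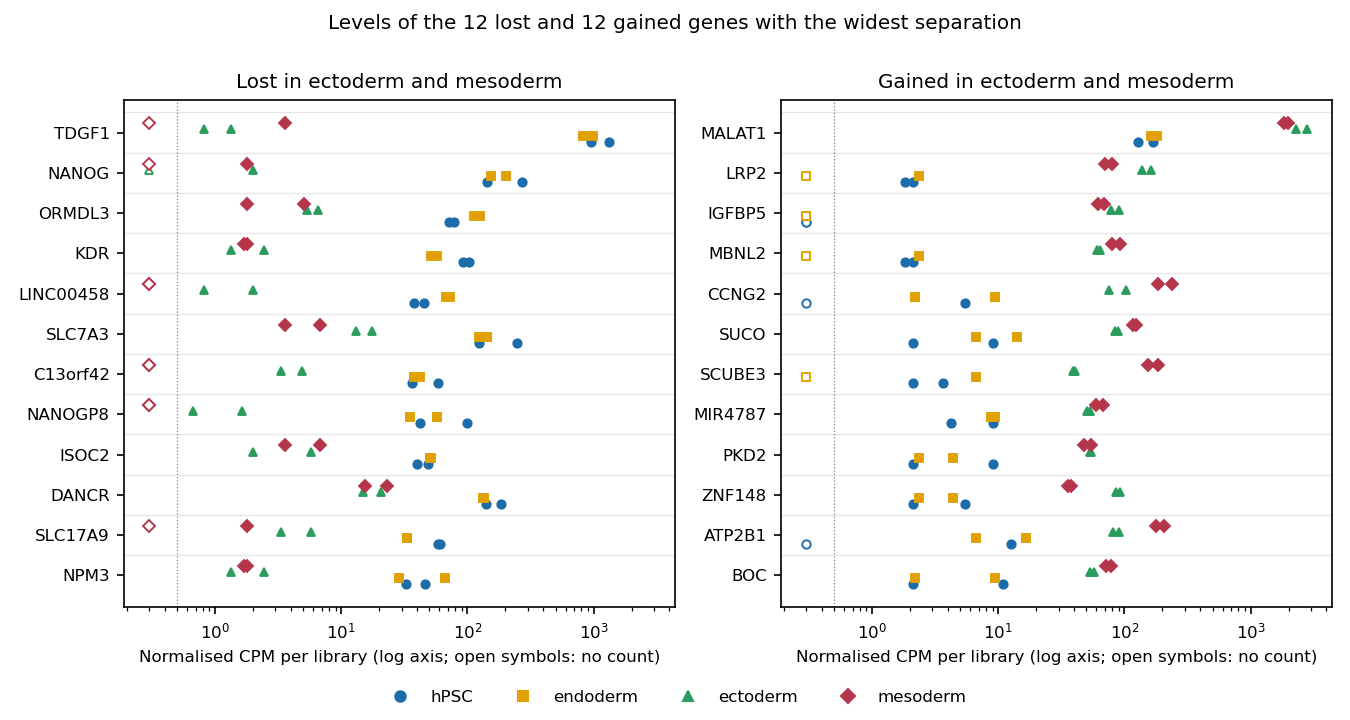
Normalised CPM (log axis) of the 12 lost and 12 gained genes with the widest separation, 2 libraries per group; open symbols left of the dotted line have no count. In every gene shown, the 4 hPSC and endoderm libraries do not overlap the 4 ectoderm and mesoderm libraries, which is how these genes were chosen.

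The other genes of the NODAL and Activin pathway were spread over all classes. Their counts stand against 28.6% higher in hPSC and endoderm, 30.5% lower and 7.55% lost over all tested genes. Of 7 tested ligands, receptors and coreceptors, 4 were called higher in hPSC and endoderm (NODAL, GDF3, ACVR1B, TDGF1) and 3 higher in ectoderm and mesoderm (TGFBR1, ACVR2A, ACVR2B). With the length trend removed 4 were higher and 1 lower, and with library totals 3 were higher and 3 lower. Only TDGF1 of these was kept in endoderm and lost elsewhere. NODAL itself had 3 and 15 reads in hPSC, 130 and 194 in endoderm, and 1 read in all in the other 4 libraries. It was therefore called higher in endoderm than in hPSC, by 4.36 ± 0.52 log2 units, and was not a kept gene. GDF3, a related ligand, had 5 and 4 reads in hPSC, 25 and 20 in endoderm and none in ectoderm or mesoderm. Among the inhibitors LEFTY2 had 2 reads in each hPSC library, 383 and 470 in endoderm and none elsewhere. Of 8 tested inhibitors, 2 were called higher in hPSC and endoderm and 3 higher in ectoderm and mesoderm.

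TGFBR1, a type I receptor of TGF-beta, was the receptor among the gained genes, though it left that class with library totals. It was at 21.8 and 6.31 normalised CPM in hPSC, 6.59 and 11.7 in endoderm, 177 and 225 in ectoderm, and 62.9 and 58.8 in mesoderm. The sides did not overlap, and ectoderm exceeded mesoderm by 1.72 ± 0.35 log2 units (edgeR, adjusted p = 0.00132). FSTL1, a secreted follistatin-like protein, was at 492 and 625 in hPSC, 481 and 298 in endoderm, 1203 and 1354 in ectoderm, and 2555 and 2549 in mesoderm. Of 12 tested SMADs and partners, 5 were called higher in hPSC and endoderm and 3 lower, and none was lost or gained by the rule. Among all tested genes 28.6% were higher and 30.5% lower. FOXH1 had 55 and 47 reads in hPSC, 86 and 103 in endoderm, 5 in each ectoderm library, and 0 and 1 in mesoderm. It missed the lost class because endoderm was called above hPSC, by 1.11 ± 0.31 log2 units.

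Of 24 tested genes of the pluripotency list, 16 were called higher in hPSC and endoderm and 3 lower, but 3 were lost by the rule: TDGF1, NANOG and SALL4. Among all tested genes 28.6% were higher, 30.5% lower and 7.55% lost. The difference between endoderm and hPSC was itself called in 18 of the 24, against 26.9% of all tested genes. POU5F1 had 372 and 352 reads in hPSC, 61 and 69 in endoderm, 5 and 16 in ectoderm, and 1 and 5 in mesoderm. Its endoderm level was 2.26 ± 0.40 log2 units below hPSC, so it lay between the sides and was not kept. PRDM14 had the same order, with 61 and 58 reads in hPSC, 16 and 9 in endoderm, 9 and 5 in ectoderm, and 0 and 1 in mesoderm. SOX2 did not follow the contrast: it had 71 and 5 reads in hPSC, none in endoderm, 180 and 129 in ectoderm and none in mesoderm. SALL4, a zinc finger factor of pluripotent cells, was at 314 and 509 normalised CPM in hPSC, 666 and 681 in endoderm, 211 and 253 in ectoderm, and 90.1 and 125 in mesoderm. Ectoderm exceeded mesoderm by 1.11 ± 0.33 (edgeR, adjusted p = 0.0161).

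Feedback and target genes of FGF signalling were among the lost genes, as was the receptor FGFR4. Of 15 tested genes of the FGF list, 8 were called higher in hPSC and endoderm and 4 lower, and 5 were lost: FGFR4, SPRY4, DUSP6, ETV5 and FGF13. Over all tested genes 28.6% were higher, 30.5% lower and 7.55% lost. SPRY4, a feedback inhibitor of the pathway, was at 114 and 185 normalised CPM in hPSC, 202 and 221 in endoderm, 18.1 and 21.3 in ectoderm, and 10.2 and 21.4 in mesoderm. DUSP6, the phosphatase of ERK, was at 102 and 206 in hPSC, 281 and 209 in endoderm, 84.4 and 58.9 in ectoderm, and 6.80 and 17.8 in mesoderm. FGFR4 was at 198 and 219 in hPSC, 204 and 280 in endoderm, 69.6 and 72.0 in ectoderm, and 23.8 and 8.91 in mesoderm. SPRY4 fell to about the same level in both layers, whereas DUSP6, FGFR4 and ETV5, an ETS factor, were each higher in ectoderm than in mesoderm, by 2.54, 2.09 and 2.35 log2 units (edgeR, adjusted p = 0.00121, 0.00132 and 0.000369). ETV4, the close relative of ETV5, had 153 reads in each hPSC library, 59 and 86 in endoderm, 39 and 32 in ectoderm, and 5 and 6 in mesoderm. ETV4 was 0.85 ± 0.31 log2 units below hPSC in endoderm, inside the limit of 1, and was not kept because that difference was called. KDR, with a difference of -0.85 ± 0.32, was not called there and was kept. After the length trend was removed 8 genes of the list were higher, 3 lower and 5 lost. Scaled to library totals 7 were higher, 5 lower and 3 lost.

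Many enzymes of glycolysis were among the lost genes. Of 20 tested genes, 15 were called higher in hPSC and endoderm, against 28.6% of all tested genes, and none lower. Against 7.55% of all tested genes, 11 were lost: ALDOC, ENO1, ALDOA, TPI1, ENO2, PGAM1, GPI, PGK1, GAPDH, LDHA and PFKP. The list's median log2 difference was 2.03, against -0.09 over all tested genes. With the length trend removed it was 1.58, with 16 genes higher, none lower and 9 lost. Scaled to library totals it was 1.52, with 13 genes higher, 1 lower and 8 lost.

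ENO1, enolase 1, was at 3699 and 8938 normalised CPM in hPSC, 10899 and 12503 in endoderm, 1483 and 861 in ectoderm, and 1305 and 1139.8 in mesoderm. PGAM1, phosphoglycerate mutase, was at 1946 and 2500.2 in hPSC, 1912 and 2185 in endoderm, 566 and 344 in ectoderm, and 325 and 376 in mesoderm. TPI1, triosephosphate isomerase, was at 2019 and 3548 in hPSC, 3668 and 4255 in endoderm, 641 and 532 in ectoderm, and 523 and 636 in mesoderm. In all of these the 4 lower libraries lay below the lowest of the 4 higher ones. The first hPSC repeat was the lowest of the higher side for ENO1 and TPI1, so the hPSC pair spread more than the endoderm pair. PGAM1 and LDHA kept their class in every fit that left out 1 library, with the length trend removed and with library totals. ENO2, the neuronal enolase, differed from the others. It had 50 and 67 reads in hPSC, 25 and 31 in endoderm, 105 and 71 in ectoderm, and 1 and 3 in mesoderm. These are raw reads, and the ectoderm libraries were the deepest. In the fit, which scales for depth, ectoderm was below hPSC. The sides of ENO2 overlapped, and ectoderm exceeded mesoderm by 4.14 ± 0.54 log2 units (edgeR, adjusted p = 3.3342e-05). PKM, pyruvate kinase, was called higher in hPSC and endoderm but was not kept, at 1.78 ± 0.41 log2 units above hPSC in endoderm. The glucose transporters SLC2A1 and SLC2A3 were not called in the contrast.

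**Figure D3:**
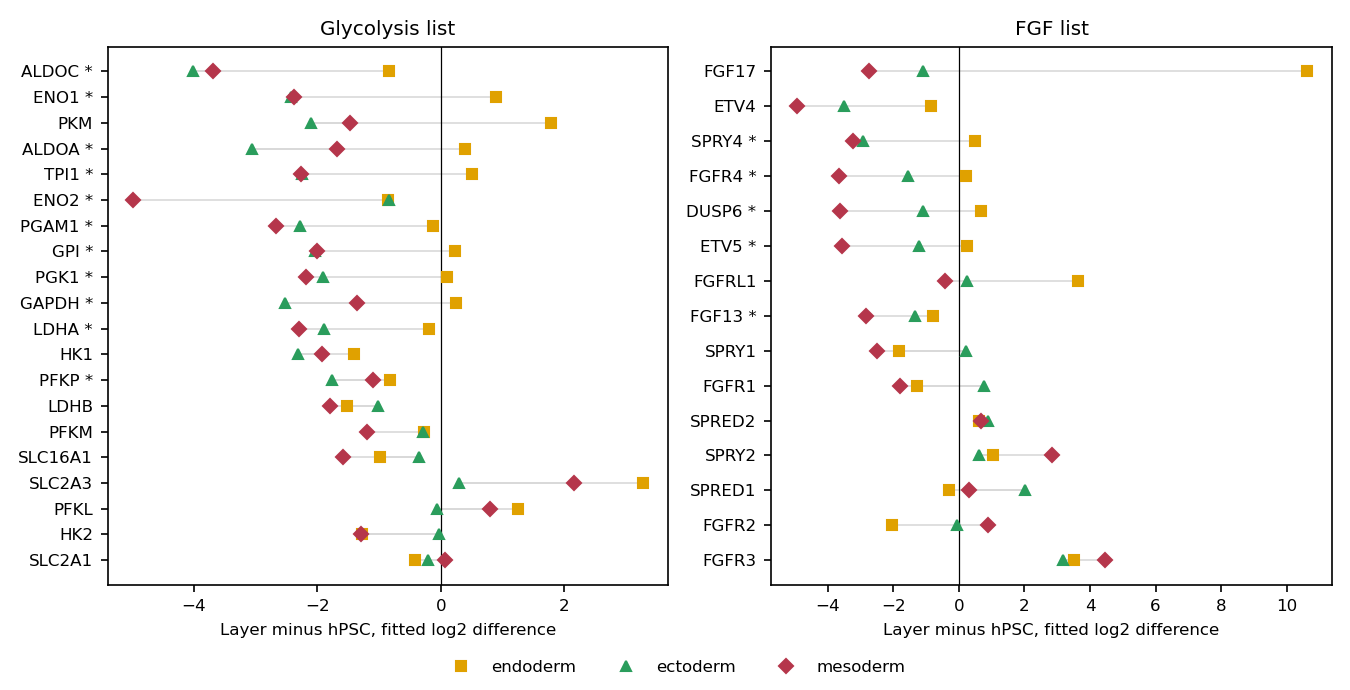
Fitted log2 difference of each layer from hPSC for the 20 tested genes of the glycolysis list (left) and the 15 of the FGF list (right), ordered by the contrast; an asterisk marks lost genes. The lost genes have endoderm near 0 and ectoderm and mesoderm to the left, ENO2 has ectoderm beside endoderm, and FGF17 has endoderm far to the right.

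Members of 4 gene families with short transcripts, picked by symbol after values were seen, made up 84 of the 795 lost genes (10.6%). Over all 10525 tested genes 28.6% were higher in hPSC and endoderm, 30.5% lower and 7.55% lost. With the length trend removed, 2895 of the 5407 called genes were higher in hPSC and endoderm, and 618 of the 10525 were lost. Of 82 tested cytoplasmic ribosomal protein genes 64 were higher in hPSC and endoderm, 4 lower and 37 lost, but with the length trend removed 23 were higher, 14 lower and 10 lost. Their median log2 difference was 1.01 as counted, 0.17 with the length trend removed and 0.52 with library totals. Mitochondrial ribosomal proteins had 46 of 74 genes higher, 4 lower and 22 lost, and 21 higher, 12 lower and 6 lost with the length trend removed. For subunits and assembly factors of complex I the counts were 30 of 44 higher, 3 lower and 13 lost as counted, and 10 higher, 7 lower and 2 lost with the trend removed. Proteasome subunits stood at 32 of 47 higher, 2 lower and 12 lost, and at 19 higher, 3 lower and 5 lost with the trend removed. Ribosomal protein genes have many processed copies, and how shared reads were assigned is not given in the sources used here, so their counts are uncertain. The median length was 897 nt in the cytoplasmic ribosomal genes, 1637 in the mitochondrial ones, 944 in complex I and 1622 in the proteasome.

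MALAT1, a nuclear noncoding RNA, headed the gained genes. It was at 127 and 168 normalised CPM in hPSC, 163 and 181 in endoderm, 2291 and 2801 in ectoderm, and 1825 and 1966 in mesoderm. The sides did not overlap, the pooled level was 14.8-fold higher in ectoderm and mesoderm, and the log2 difference of endoderm from hPSC was 0.22 (95% interval -0.48 to 0.92). Its reads came from 3 assembled transcripts at chr11:65497708-65506469 (GRCh38, plus strand), 50.4% from an unspliced one of 8762 nt.

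Most other gained genes with a wide separation were near the detection limit in hPSC and endoderm. IGFBP5, a secreted binding protein of insulin-like growth factors at chr2:216672100-216695549 (minus strand), had no read in any hPSC or endoderm library and 91.1, 78.5, 61.2 and 69.5 normalised CPM in the ectoderm and mesoderm pairs. It was at least 50.5-fold higher there, taking 3 counts over the 4 empty libraries as the limit. LRP2, the endocytic receptor megalin at chr2:169127091-169362579 (minus strand), had 1, 1, 0 and 1 reads in hPSC and endoderm, and 137, 161, 69.7 and 80.1 normalised CPM in the ectoderm and mesoderm pairs. The ratio was 80.1, with a 95% interval of 27.2 to 389.6 that covers counting error only. MBNL2, a splicing regulator, had 1, 1, 0 and 1 reads in the same libraries, and a ratio of 44.1 (14.9 to 215). For such genes endoderm could not be shown to equal hPSC: the interval of the log2 difference was -3.59 to 2.20 for LRP2 and -3.62 to 2.23 for MBNL2.

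CCNG2, an unconventional cyclin of arrested cells, was at 5.44 and 0 in hPSC, 2.20 and 9.40 in endoderm, 75.7 and 103 in ectoderm, and 184 and 237 in mesoderm. SCUBE3, a secreted cell-surface protein, was at 3.63 and 2.10 in hPSC, 6.59 and 0 in endoderm, 40.2 and 39.2 in ectoderm, and 155 and 185 in mesoderm. Both were higher in mesoderm than in ectoderm, by 1.24 ± 0.35 and 2.09 ± 0.33 log2 units (edgeR, adjusted p = 0.0126 and 0.000192). The calcium pump ATP2B1 and the Hedgehog coreceptor BOC had pooled ratios of 14.0 and 9.70. SUCO, PKD2 (polycystin 2) and the zinc finger factor ZNF148 had ratios of 12.2, 11.2 and 20.0. The twelfth, listed under the symbol MIR4787 with the identifier ENSG00000272543.1, is made of 19 assembled transcripts of up to 25 exons that lie over the gene DOCK3, so its ratio of 7.04 says nothing of the microRNA.

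Gained genes were also counted in lists of zinc finger, adhesion and patterning genes. Over all tested genes 28.6% were called higher in hPSC and endoderm, 30.5% lower, 7.55% lost and 4.92% gained. Of 259 tested ZNF genes, picked by symbol after values were seen, 33 were higher in hPSC and endoderm, 97 lower, 4 lost and 15 gained, and with the length trend removed 41 were higher, 60 lower, 10 lost and 6 gained. The 15 gained ZNF genes are 5.79% of the family, near the share over all genes, and the 4 lost ones are 1.54%. Of 31 tested genes of axon guidance and neural adhesion, 3 were higher in hPSC and endoderm and 16 lower as counted, and 6 higher and 11 lower with the length trend removed. The ephrins EFNB1 and EFNB2 were gained. EFNB2 was at 1.81 and 6.31 normalised CPM in hPSC, 4.40 and 2.35 in endoderm, 34.8 and 16.4 in ectoderm, and 86.7 and 73.0 in mesoderm. LEF1, a TCF family factor of the WNT pathway, had no read in hPSC or endoderm and was at 18.1 and 19.6 in ectoderm and 23.8 and 28.5 in mesoderm, at least 13.3-fold higher. NR2F2, a nuclear receptor of mesenchyme, and ANXA1, a membrane-binding annexin, also had no read in hPSC or endoderm but rested mostly on mesoderm. NR2F2 was at 2.68 and 4.91 in ectoderm against 73.1 and 73.0 in mesoderm, and ANXA1 at 2.68 and 3.27 against 450.3 and 520.1. Of 21 tested TALE homeobox and patterning factors 3 were higher and 8 lower as counted, and 8 higher and 7 lower with the length trend removed. TGIF1, a repressor of SMAD targets, was lost, at 258 and 404 in hPSC, 363 and 432 in endoderm, 74.3 and 52.3 in ectoderm, and 158 and 148 in mesoderm.

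Counts in the lists of BMP, junction and matrix genes stand against 28.6% higher in hPSC and endoderm and 30.5% lower over all tested genes. Of 18 tested BMP pathway genes 1 was higher in hPSC and endoderm and 10 lower. With the length trend removed 0 were higher and 10 lower, and with library totals 1 and 10. SMAD5 was gained, at 27.2 and 14.7 normalised CPM in hPSC, 30.8 and 28.2 in endoderm, 123 in both ectoderm libraries, and 51.0 and 78.4 in mesoderm. ID3, a BMP target, was the lost gene of the list, but its log2 difference of 1.06 became 0.04 with the length trend removed. Of 30 tested epithelial junction and splicing genes 9 were higher and 14 lower, and 5 and 16 with library totals. The tight junction gene CLDN7 was lost, at 141 and 246 in hPSC, 332 and 439 in endoderm, 18.1 and 5.72 in ectoderm, and 32.3 and 57.0 in mesoderm. The desmosomal cadherins DSG2 and DSC2 were gained, with pooled ratios of 4.95 and 4.37. Of 38 tested mesenchymal and matrix genes 13 were higher and 17 lower as counted, but 16 higher and 14 lower with the length trend removed, and the list's median turned from -0.64 to 0.20. CALD1, caldesmon, was gained at 41.7 and 44.2 in hPSC, 65.9 and 23.5 in endoderm, 163 and 164 in ectoderm, and 209 and 226 in mesoderm.

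Counts in the remaining lists stand against 28.6% higher, 30.5% lower, 7.55% lost and 4.92% gained over all tested genes. Of 34 tested cell cycle genes 11 were higher and 11 lower, near the shares over all genes. Of the 34, 6 were lost (MCM5, CDC20, CDK4, MCM7, RRM2 and AURKB) and 1 was gained (CDK1). With the length trend removed 7 were higher, 14 lower and 3 lost, and with library totals 7 were higher, 15 lower and 2 lost. Of 20 tested imprinted genes 6 were higher and 5 lower, and scaled to library totals 2 were higher and 7 lower. SNRPN was lost, at 1968 and 4209 normalised CPM in hPSC, 1536 and 1980.4 in endoderm, 442 and 309.9 in ectoderm, and 345 and 349 in mesoderm. KCNQ1OT1 was gained with a log2 difference of -1.91, which was -0.52 with the length trend removed. Of 14 tested genes of the LIN28 and let-7 list 5 were higher and 8 lower as counted and 2 higher and 9 lower with library totals. HMGA2, a chromatin protein repressed by let-7, was gained, with a ratio of 3.27. UHRF1, which brings DNMT1 to replicating DNA, was gained among 9 tested DNA methylation genes, of which 2 were higher and 2 lower. With the length trend removed 4 of them were higher and 2 lower, and with library totals 1 higher and 5 lower. CBX1, a heterochromatin protein, was lost among 14 tested silencing genes, of which 3 were higher and 7 lower as counted, 3 higher and 4 lower with the length trend removed, and 0 higher and 7 lower with library totals. Its log2 difference of 0.90 was 0.42 with the length trend removed. Of 5 tested HERVH-linked transcripts 4 were higher and LINC00458 was lost. Of 11 tested WNT antagonists 3 were higher, 3 lower and none lost or gained.

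Transcript length separated the classes. The median count-weighted length was 2020.4 nt in lost genes (quartiles 1290.5 and 2969), 5374 nt in gained genes (3973 and 7043) and 3773 nt in all tested genes. Using the longest transcript that matches the reference, the medians were 2137, 5467 and 3747 nt. With the tested genes cut by length into 3 equal bins, the shortest held 578 lost and 43 gained genes, the middle one 158 and 153, and the longest 59 and 322. With 10 equal bins, the shortest, with a median of 1172 nt, had 281 lost and 5 gained of 1052 genes, and the longest, with a median of 9489 nt, had 7 lost and 106 gained of 1053. The median log2 difference of all genes ran from 1.15 in the shortest of the 10 bins to -1.09 in the longest. NANOG and KDR, at 4993 and 5844 nt, were long lost genes, and ANXA1, at 1411 nt, a short gained one.

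A smooth trend of each library's log counts on gene length was then removed before the fit. The contrast called 5407 genes, with 618 lost and 325 gained. The classes were then spread more evenly over length: from the shortest to the longest, the 3 bins held 217, 201 and 200 lost genes and 93, 109 and 123 gained genes. Of the original genes, 420 lost ones were shared, which is 52.8% of the original class and 68.0% of the new one, and 267 gained ones, 51.5% and 82.2%. The contrast itself was still called in the same direction in 652 of the 795 lost and 469 of the 518 gained genes. TDGF1 had a log2 difference of 8.79 after the correction, NANOG 7.87, KDR 5.84, ENO1 2.14, SPRY4 3.82, MALAT1 -2.99 and TGFBR1 -2.55. A trend on length removes any true difference that follows length as well, so the corrected values are a second description.

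**Figure D4:**
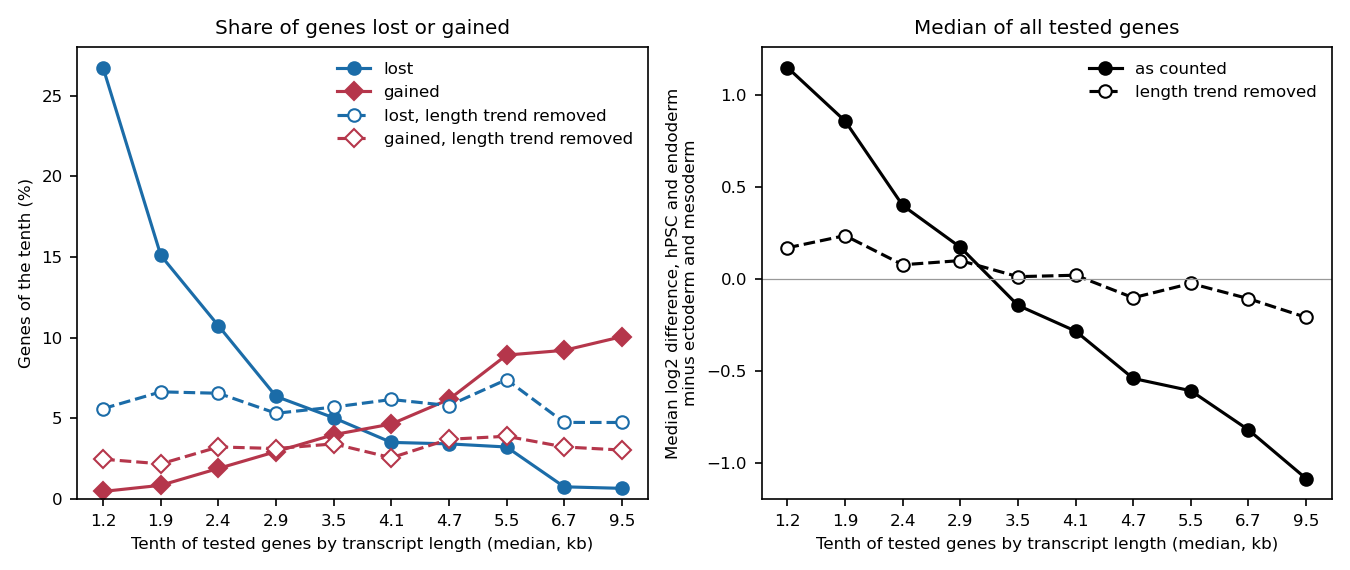
Left, the share of lost and gained genes in each of 10 equal bins of the tested genes by transcript length; right, the median log2 difference of all genes in the bin; dashed lines are after removal of the length trend. As counted, the lost share falls and the gained share rises with length, and after removal the lost share stays between 4.75% and 7.41%.

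Lengths here are those of the assembled transcripts that reads were assigned to, not of the reads themselves. Why the libraries differed in length was not tested. With every gene set to its mean length over the 8 libraries, the mean length per read was 2954 to 3251 nt in hPSC and endoderm and 3669 to 4387 nt in ectoderm and mesoderm, close to the measured range. Among 2418 genes with at least 20 reads in every library, the length of the reads' transcripts inside a gene differed between the sides by a median of 0.000478 log2 units (quartiles -0.000222 and 0.0231). A gene with a single transcript cannot differ by this measure. The mean deviation from a gene's own mean was -0.0162 to -0.0104 log2 units in hPSC and endoderm libraries. In ectoderm and mesoderm libraries it was 0.00179 to 0.0268. Mitochondrial transcripts took 2.06% to 4.50% of reads in hPSC and endoderm and 1.06% to 1.32% in ectoderm and mesoderm. Their part in the gene classes was not tested.

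Assembled transcripts were fitted in the same way. Their counts are the ones summed to choose the genes, so their direction is a description. Of 1158 tested transcripts of lost genes 1040 were called higher in hPSC and endoderm and 2 lower, and of 677 tested transcripts of gained genes 652 were called higher in ectoderm and mesoderm and none lower. Over all 12440 tested transcripts 27.1% were called higher in hPSC and endoderm and 31.5% lower. The exceptions lay in SNRPN and GTF3C5, a subunit of TFIIIC, and were picked out after their values were seen. The SNRPN transcript, which overlaps the reference only in part, is 3717 nt long. It had 28 and 16 reads in hPSC, 1 and 4 in endoderm, 58 and 46 in ectoderm, and 15 and 23 in mesoderm. The GTF3C5 transcript, of 3186 nt, had 5 and 4 reads in hPSC, 8 and 9 in endoderm, 47 and 42 in ectoderm, and 12 and 18 in mesoderm.

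Ectoderm against mesoderm, a difference the contrast does not hold, was called in 35.8% of all tested genes. Among the lost genes it was called in 120 (15.1%), with 51 higher in ectoderm and 69 higher in mesoderm, and among the gained genes in 171 (33.0%), with 119 and 52. The requirement of a call in both layers favours genes that are alike in them, so nothing is read from the lower shares. Of the 3014 genes higher in hPSC and endoderm 923 (30.6%) differed between ectoderm and mesoderm, and of the 3207 on the other side 1412 (44.0%). Endoderm against hPSC was called in 1078 (35.8%) of the 3014 and in 681 (21.2%) of the 3207. Over all tested genes that share was 26.9%. The kept condition was weaker for gained genes. The 95% interval of the difference of endoderm from hPSC lay inside 1 log2 unit in 284 lost and 31 gained genes. No hPSC or endoderm library reached 3 counts in 47 of the 518 gained genes, whereas no ectoderm or mesoderm library did so in 8 of the 795 lost genes. The median log2 difference was 1.66 in lost genes and -2.11 in gained genes. Only 1 lost and 6 gained genes had no read at all on the lower side, and the medians were the same with those at their limit.

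A smaller group kept its class in all 8 fits that left out 1 library, with the length trend removed and with library totals: 78 lost and 67 gained genes. The lost ones had a median length of 2136 nt and the gained ones of 4734 nt. TDGF1, NANOG, ORMDL3, LINC00458, C13orf42, ISOC2, DANCR, NPM3, FGFR4, LDHA and PGAM1 were among the 78. MALAT1, IGFBP5, ZNF148, CALD1, LEF1 and EFNB2 were among the 67, as was REST, the repressor of neuronal genes, which had 10, 4, 4 and 6 reads in hPSC and endoderm, 111 and 64 in ectoderm, and 29 and 39 in mesoderm. REST was picked out from the stable genes after its values were seen.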

How the data were processed

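Whole long reads per assembled transcript were used as deposited: the authors' combined table holds raw counts with no normalization for 8 libraries. The endoderm columns are recorded under the unit expected count because of their name, but the authors deposited whole raw counts in them as in the others, and nothing was rounded. The submitters' processing notes name minimap2, StringTie and GRCh38. The read counter and the annotation release are not given in the sources used here, nor is whether strand was used, so overlapping genes and close copies may share reads. The labels' extract protocol describes a short-read library preparation too, and no short-read data were analysed here.

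Transcripts with a gene name were summed per gene identifier. After filterByExpr (minimum count 10) and TMM, 1 quasi-likelihood fit over the 4 groups was made in edgeR 4.0.16 (R 4.3.3). Tests were two-sided and adjusted by Benjamini-Hochberg at 0.05. The SE is the log2 difference divided by the square root of F. The length trend is a lowess curve (span 0.3) of each library's log2 CPM (prior count 2), used as an offset. The fit was also run on simulated data with few changed genes, as many up as down, a common dispersion and no length trend. Those settings differ from these libraries, so nothing is drawn from that run. Promoter windows, 250 bases before to 50 after the start, are from RefSeq.

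The members, the lists and the tests were chosen with earlier results of these data known. Named genes were NANOG and TDGF1, the 12 lost and 12 gained genes with a symbol and the widest separation (lowest higher library over highest lower one, with under 3 counts set to 3), up to 4 lost or gained genes per list, the 2 nearest genes on each side of the kept limit, and the most read transcript of each. Other genes of the pathway lists are given as list members. Alternatives were DESeq2 1.42.0 (size factors and Wald test), other count filters, reference-matching transcripts, transcripts listed by position, other kept limits, the replicate block, each library left out, and, chosen after seeing the data, library totals with no TMM factor.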

Additional observations from a re-analysis of the deposited data

Results flagged for a closer look

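In 22 of the 59 named lost and gained genes (37.3%) the difference between ectoderm and mesoderm, which are both set against the same hPSC libraries, was itself called (edgeR, adjusted p under 0.05 over all tested genes). Over all tested genes it was called in 35.8%, in all lost genes in 15.1% and in all gained genes in 33.0%. The named genes were picked by the rules given above, so nothing is read from their share. The values are ectoderm minus mesoderm on the log2 scale, and no explanation of them was tested.

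Among lost genes, C13orf42 (4.61), DUSP6 (2.54), ETV5 (2.35), FGFR4 (2.09) and SALL4 (1.11) were higher in ectoderm, with adjusted p from 0.000369 for ETV5 to 0.039 for C13orf42 in the edgeR fit. CLDN7 (-1.85) and TGIF1 (-1.27) were higher in mesoderm, with adjusted p of 0.0104 and 0.00777 in the same fit. C13orf42 had no read in either mesoderm library, so its fitted value is no bound.

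Among gained genes, TGFBR1 (1.72), SMC2 (1.54), ZNF148 (1.28), EFNB1 (1.00), LRP2 (0.99) and SMAD5 (0.92) were higher in ectoderm, with adjusted p from 0.00132 for TGFBR1 to 0.031 for EFNB1. A further 9 were higher in mesoderm: ANXA1 (-7.28), NR2F2 (-4.24), SCUBE3 (-2.09), EFNB2 (-1.61), DSC2 (-1.46), CCNG2 (-1.24), LAMC1 (-1.21), ATP2B1 (-1.16) and FSTL1 (-0.997). Their adjusted p ran from 1.10e-07 for ANXA1 to 0.0266 for ATP2B1.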

How the results depend on the processing

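The contrast called between 4164 genes (minimum count 30) and 7112 (no filter) across the alternatives, and no named gene changed direction. Of 991 values of named genes under the alternatives, 9 no longer passed the threshold: ABHD13 in 5, CBX1 in 2, and ID3 and KCNQ1OT1 in 1 each. The DESeq2 Wald test gave 501 lost and 215 gained genes, 1047 contrast genes (main value 1759) that differed between endoderm and hPSC and 1121 (main value 2335) that differed between ectoderm and mesoderm. With the length trend removed 325 genes were gained, and with library totals 449 were lost. A 95% interval inside 1 log2 unit left 284 lost and 31 gained genes. By reference-matching length the medians were 2137 nt in lost and 5467 nt in gained genes. The cause of these shifts was not tested.

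Leaving out 1 library at a time gave 311 to 1087 lost genes, 261 to 673 gained genes, 5295 to 7099 calls, 741 to 2474 contrast genes that differed between endoderm and hPSC, and 956 to 3537 that differed between ectoderm and mesoderm. The count for endoderm and hPSC was 926 and 741 without endoderm repeats 1 and 2. That for ectoderm and mesoderm was 1282 and 1003 without ectoderm repeats 1 and 2, 956 and 1076 without mesoderm repeats 1 and 2, and 3537 without hPSC repeat 1. The group left with 1 library is then assumed to vary like the others. The main fit used no pairing by replicate number. Correlations of repeat differences were 0.152 between hPSC and endoderm and 0.079 between ectoderm and mesoderm. Between groups of opposite sides they were -0.037 to -0.030. Whether repeats of the same number shared processing is not settled by these values. With the replicate block the fit called 6114 genes, with 751 lost and 482 gained. The depth limits the gained genes most, whose hPSC and endoderm libraries held a median of 22.5 reads in sum.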
